A study of Mus musculus with 6 samples.

Results

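The 10 genes described here encode brakes on entry into the cell cycle and a cyclin that promotes it. They are 6 inhibitors of cyclin-dependent kinases (CDKs), the 3 retinoblastoma family proteins and cyclin D1. The genes were chosen by name, with earlier results of these data known. All 16 probe sets that the platform annotation assigns to a single gene of the 10 were used, out of 22690 on the array and 12393 genes tested. All 10 genes were measured, 5 of them by more than 1 probe set. RNA came from a pair of mouse hypothalamic cell lines that are both labelled as expressing neuropeptide Y, A_212 from adult hypothalamus and N_46 from embryonic hypothalamus. Both lines were immortalised with the SV40 T-antigen, so N_46 carries it as A_212 does, and both grew in DMEM with 5% fetal bovine serum to 70% confluence. Each line was sampled as 3 plates with 1 array per plate, and the labels name no other treatment, no sex and no age in days. Each age of origin is represented by 1 line, so age cannot be told apart from any other property of that line, and p-values measure the spread between plates.

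As background, D-type cyclins bind CDK4 and CDK6 and begin the phosphorylation of the retinoblastoma proteins, which releases E2F transcription factors and lets DNA replication genes switch on. INK4 proteins (p16, p15, p18 and p19) bind CDK4 and CDK6, whereas p21 and p27 of the CIP/KIP family act mainly on cyclin E and cyclin A complexes with CDK2. SV40 large T-antigen binds the retinoblastoma proteins through an LxCxE motif and also binds p53, the activator of the p21 gene, so cells that carry it cycle with much of this control disabled.

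The deposited values are on a log scale taken as base 2, and the 6 values of each probe set are centred on their own median of 0. Such values compare arrays but give no level, so no gene can be called expressed or silent, and levels cannot be ordered between genes. The number of arrays limits the precision. Differences are A_212 minus N_46, so a positive value is higher in A_212, and errors on differences are standard errors (SE) of the limma fit. The median SD between plates was 0.099 in A_212 and 0.078 in N_46 over all genes. Among markers of the cell types such cultures could hold, 2 of 10 neuronal genes were higher and 2 lower in A_212, 0 of 7 astrocyte genes were higher and 2 lower, and 6 of 10 fibroblast genes were higher and 1 lower. Over all genes tested, 18.3% were higher and 20.9% lower by the same limma test. The neuronal count fell to 2 called genes without N_46 replicate 2. The mean centred value of the fibroblast list lay between 0.70 and 0.98 on the A_212 arrays, against -0.89 to -0.74 on the N_46 arrays, and that of the neuronal list between 0.16 and 0.18, against -0.23 to -0.13. Stmn2 (3.09) and Tubb3 (1.13) had the largest neuronal differences, and the median of that list, -0.07, had the opposite sign to its mean. For the astrocyte list the means were -0.36 to -0.23 on the A_212 arrays and 0.25 to 0.31 on the N_46 arrays. Whether a defining marker is absent cannot be read from centred values, and the part of cell identity in the results below was not tested. Nor can fewer cells that express a gene be told apart from less of its RNA per cell.

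As background, p53 is known to act on the promoter of Cdkn1a and E2F on that of Rbl1, and stretches upstream of these genes and of Cdkn2a are shown here with matches to their sites marked. RefSeq windows of 300 bases (GRCm38.p6), 250 before and 50 after a transcript start, were held for 8 of the 10 genes, 11 windows in all, and the 250 bases before the start are printed 5′ to 3′. Cdkn1a, on chromosome 17, has 2 windows, the more upstream one at chr17:29090729-29090978 (plus strand), where capitals mark matches to the p53 half-site consensus, and the other at chr17:29093519-29093768 (plus strand), which has none. For Rbl1 at chr2:157204535-157204784 (minus strand) and the more upstream window of Cdkn2a at chr4:89294620-89294869 (minus strand), capitals mark an E2F word.
Cdkn1a upstream window: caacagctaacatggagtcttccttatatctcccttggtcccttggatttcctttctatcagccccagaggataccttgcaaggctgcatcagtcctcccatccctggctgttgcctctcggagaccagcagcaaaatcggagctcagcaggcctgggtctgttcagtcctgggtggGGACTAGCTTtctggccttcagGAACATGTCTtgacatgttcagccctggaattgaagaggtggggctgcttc
Cdkn1a downstream window: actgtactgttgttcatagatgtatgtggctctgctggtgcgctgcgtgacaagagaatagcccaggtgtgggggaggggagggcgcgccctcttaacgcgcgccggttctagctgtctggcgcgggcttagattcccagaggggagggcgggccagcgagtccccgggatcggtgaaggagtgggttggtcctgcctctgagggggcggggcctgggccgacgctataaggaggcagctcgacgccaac
Rbl1 window: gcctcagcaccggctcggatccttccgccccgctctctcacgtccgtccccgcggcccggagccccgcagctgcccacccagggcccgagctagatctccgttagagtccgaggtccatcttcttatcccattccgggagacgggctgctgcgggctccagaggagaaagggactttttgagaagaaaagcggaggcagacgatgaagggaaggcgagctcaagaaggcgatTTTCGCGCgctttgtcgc
Cdkn2a upstream window: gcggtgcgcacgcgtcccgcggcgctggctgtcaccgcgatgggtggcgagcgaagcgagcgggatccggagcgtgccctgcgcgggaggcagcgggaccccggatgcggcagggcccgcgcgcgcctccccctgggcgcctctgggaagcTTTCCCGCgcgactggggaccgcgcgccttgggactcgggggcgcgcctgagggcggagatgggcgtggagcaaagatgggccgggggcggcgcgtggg

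The E2F words searched were TTTCCCGC, TTTCGCGC, TTTGCCGC and TTTGGCGC on both strands, and 2 of the 11 windows, those of Rbl1 and Cdkn2a printed above, held one, where 2.26% of all 32851 promoter windows did. A p53 half-site was found in 2 of the 11, with 2 matches for Cdkn1a and 1 for Cdkn2d, against 8.36% of all windows. The Sp1 word GGGCGG stood in 9 of the 11, against 35.7% of all windows, and TTTGAA, the cell cycle homology region (CHR), in those of Cdkn2b and Rbl2, against 17.9%. The 11 windows came from 8 genes and held 44.0% to 77.0% G and C, and the shares of all windows were not matched for that content. The Sp1 word may overlap an E2F word, and a match is a run of letters, not a bound site.

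Of the 10 genes 5 passed the test, with the largest differences in opposite directions for p21 and cyclin D1. By gene mean, Cdkn1a was higher in A_212 and Ccnd1 was lower, each by more than 2-fold. Probe set 1421679_a_at of Cdkn1a alone gave 1.57-fold. Tested by treat against a 2-fold bound, neither gene passed (adjusted p = 0.25 for Cdkn1a and 0.051 for Ccnd1). Cdkn2c and Rbl2 were higher and Cdkn1b lower by small amounts. With a threshold of 0.05 on the adjusted p of limma (Benjamini-Hochberg over all genes), 5 of the 10 genes were called, where 39.2% of all genes tested were. Of the 5, 3 were higher in A_212 (18.3% of all genes) and 2 were lower (20.9%). The lines did not overlap for 6 of the 10, against 51.1% of all genes, and 2 of the 10 were called with at least a 2-fold difference, against 5.83%. The median difference of the 10 was -0.13, and that of all genes was -0.06. Counted by probe set, 10 of the 16 were called, 5 higher and 5 lower in A_212, where 36% of the array's probe sets were called, 17.1% higher and 19% lower. Leaving out A_212 replicate 3 reduced the called genes to 3, which were Cdkn1a, Rbl2 and Ccnd1.

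**Figure D1:**
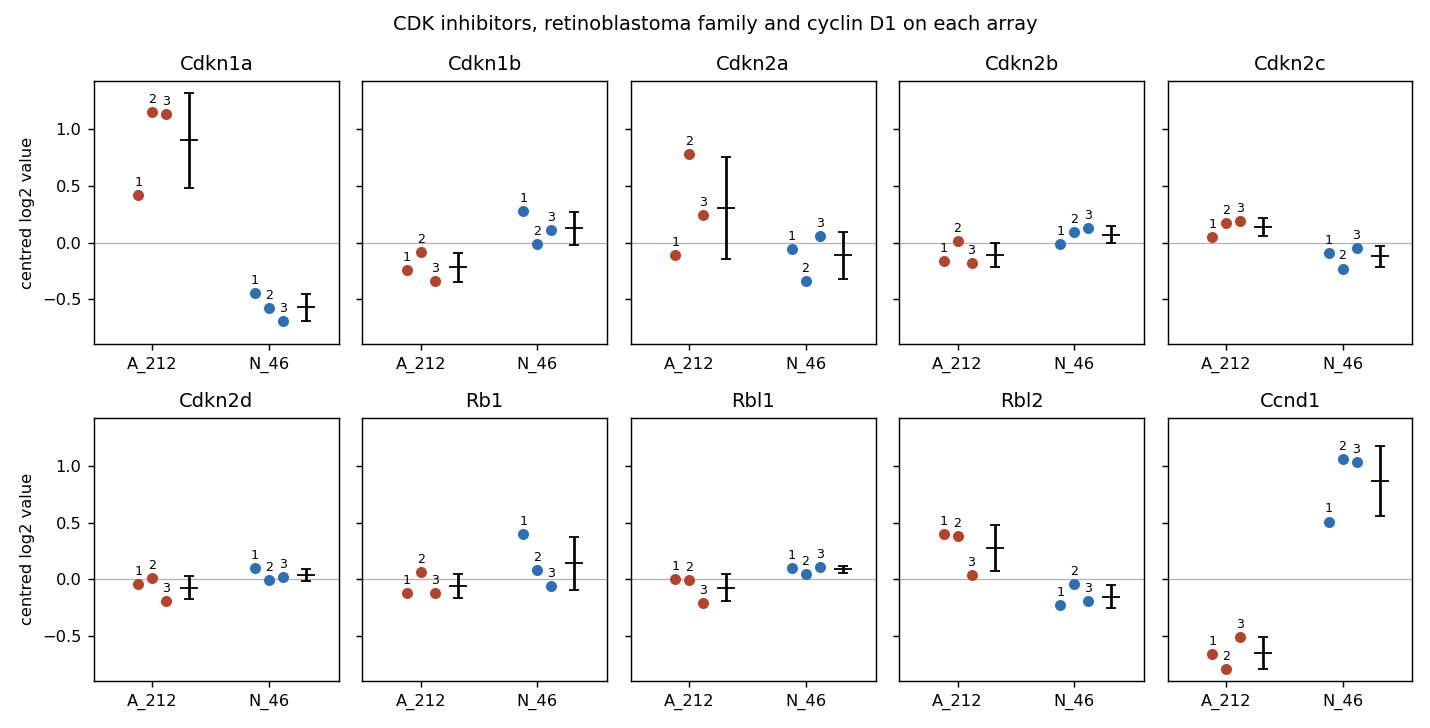
Centred log2 value (vertical axis) of each of the 10 genes on each array, A_212 in red on the left and N_46 in blue on the right, with replicate numbers at the points and the mean ± SD of 3 arrays as black bars. Cdkn1a lies between 0.42 and 1.15 on the A_212 arrays and between -0.69 and -0.45 on the N_46 arrays, Ccnd1 the other way round, and the remaining genes lie within 1 unit of 0.

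Cdkn1a encodes p21, which p53 induces after DNA damage and other stress and which blocks CDK2. Its gene mean was 0.42, 1.15 and 1.14 on the A_212 arrays, against -0.45, -0.58 and -0.69 on the N_46 arrays. All A_212 arrays lay above all N_46 arrays, with replicate 1 the lowest of its line. The difference was 1.47 ± 0.17 (SE, n = 3 arrays per line), or 2.78-fold (95% interval 1.10 to 1.85 on the log2 scale), with a limma adjusted p of 5.9e-05, and it was larger in absolute size than 96.9% of genes. Its probe sets agreed in direction and not in size. Probe set 1424638_at read 0.68, 1.74 and 1.67 in A_212, against -0.68, -1.0 and -1.13 in N_46, a difference of 2.30 ± 0.24 (4.93-fold). The other was 1421679_a_at, whose suffix marks probes shared by alternative transcripts. It read 0.15, 0.56 and 0.61 in A_212, against -0.22, -0.15 and -0.24 in N_46, a difference of 0.65 ± 0.12 (1.57-fold). Taken within each array, the first minus the second was 0.53, 1.18 and 1.05 in A_212 and -0.46, -0.85 and -0.89 in N_46. Those values did not overlap, and the exact two-sided permutation p was 0.10, the smallest that 3 against 3 arrays can give.

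Cdkn1b encodes p27, the inhibitor that restrains CDK2 in resting cells. Its gene mean was -0.24, -0.08 and -0.34 in A_212, against 0.28, -0.01 and 0.11 in N_46, and the lowest N_46 array lay just above the highest A_212 array. The difference was -0.35 ± 0.10 (limma adjusted p = 0.015), and it missed the threshold without A_212 replicate 3 (adjusted p = 0.054) or without N_46 replicate 1 (0.052). A single probe set carried it. Probe set 1419497_at read -0.40, -0.15 and -0.70 in A_212, against 0.26, 0.15 and 0.23 in N_46 (-0.63 ± 0.12, limma adjusted p = 0.0025), whereas 1434045_at differed by -0.07 (95% interval -0.32 to 0.18, limma adjusted p = 0.68) with overlapping lines. The within-array difference between them averaged 0.40 in A_212 and -0.17 in N_46 without overlap (exact permutation p = 0.10).

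The 4 INK4 genes showed small differences or ones that varied between plates. Cdkn2c, which encodes p18, was the 1 of the 4 that passed, at 0.05, 0.17 and 0.19 in A_212, against -0.09, -0.23 and -0.05 in N_46. Its values did not overlap, and the difference was 0.26 ± 0.08, or 1.20-fold (limma adjusted p = 0.021). The call ended without A_212 replicate 2 (adjusted p = 0.063), A_212 replicate 3 (0.051) or N_46 replicate 2 (0.11). Cdkn2a encodes both p16 and, from another reading frame, p19Arf, which stabilises p53, and its 1 probe set has a suffix for alternative transcripts, so the products were not separated here. It read -0.11, 0.78 and 0.24 in A_212, against -0.06, -0.34 and 0.06 in N_46. Replicate 1 of A_212 lay below 2 of the N_46 arrays, and replicate 2 stood above all others. The difference of 0.42 ± 0.19 (95% interval 0.00 to 0.84) had a limma adjusted p of 0.11. Without A_212 replicate 1 it was 0.63 (adjusted p = 0.013), and without A_212 replicate 2 it was 0.18 (0.38).

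Cdkn2b, which encodes p15, a mediator of arrest by TGF-beta, read -0.16, 0.01 and -0.18 in A_212, against -0.01, 0.09 and 0.13 in N_46. The lines overlapped, and the difference of -0.18 ± 0.08 did not pass (95% interval -0.36 to -0.01, limma adjusted p = 0.093), but it did without A_212 replicate 2 (-0.24, adjusted p = 0.046). For Cdkn2d, which encodes the INK4 protein p19, values between -0.19 and 0.01 in A_212 and between -0.01 and 0.10 in N_46 overlapped, with a difference of -0.11 (95% interval -0.28 to 0.06, limma adjusted p = 0.30), or -0.05 without A_212 replicate 3.

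Cdkn2a and Cdkn2b lie side by side on chromosome 4 with 0 tested genes between them, and 5 tested genes on either side were examined. The differences were negative for all 5 on one side and of both signs on the other. On the first side stand Mtap, the methylthioadenosine phosphorylase gene next to the pair (-0.44 ± 0.07, limma adjusted p = 0.00066), and the interferon alpha genes Ifna1, Ifna4, Ifna5 and Ifna11, whose near-identical sequences can share probes. Of those 4, Ifna5 was lower in A_212 (-0.28, adjusted p = 0.025). The others had differences from -0.08 to -0.05 that did not pass and lay close to the median of all genes, -0.06. On the other side, Elavl2, which encodes a neuronal RNA-binding protein (0.75), and Ift74, a gene of intraflagellar transport (0.58), were higher in A_212. Caap1, a gene linked to caspase activity and apoptosis (-0.56), was lower, and Zfp352 (-0.06) and Plaa (-0.05) did not pass. The call of Elavl2 ended when the median of its probe sets replaced their mean (0.19, limma adjusted p = 0.16), and that of Ifna5 ended without A_212 replicate 1 or 2 or without N_46 replicate 2 or 3 (adjusted p up to 0.11).

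Of the 3 retinoblastoma family genes, Rbl2 passed, Rb1 did not, and the probe sets of Rbl1 went in opposite directions. Rbl2 encodes p130, the family member that binds E2F4 in resting cells. It read 0.40, 0.38 and 0.04 in A_212, against -0.23, -0.04 and -0.19 in N_46, so the lines did not overlap and A_212 replicate 3 lay nearest to N_46. The difference was 0.43 ± 0.10, or 1.34-fold (limma adjusted p = 0.0076), and its probe sets gave 0.42 and 0.43. The within-array difference between these probe sets averaged 0.0 in A_212 and -0.01 in N_46, with overlap (exact permutation p = 0.7). Rb1, which encodes the retinoblastoma protein itself, read -0.12, 0.06 and -0.12 in A_212, against 0.40, 0.08 and -0.06 in N_46. These values overlapped, with a difference of -0.20 ± 0.11 (95% interval -0.45 to 0.05, limma adjusted p = 0.19), and it was -0.07 without N_46 replicate 1.

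Rbl1, itself known as an E2F target, encodes p107. Its gene mean differed by -0.16 ± 0.08 (95% interval -0.34 to 0.01, limma adjusted p = 0.13), which averages probe sets that disagreed and was -0.09 without A_212 replicate 3. Probe set 1424156_at read -0.24, -0.14 and -0.43 in A_212, against 0.20, 0.14 and 0.25 in N_46, a difference of -0.47 ± 0.09 that passed (limma adjusted p = 0.0022). Probe set 1425166_at read 0.25, 0.12 and 0.01 in A_212, against -0.01, -0.04 and -0.02 in N_46, a difference of 0.15 ± 0.08 that did not pass (limma adjusted p = 0.21). The second minus the first within each array was 0.49, 0.27 and 0.44 in A_212, against -0.21, -0.18 and -0.27 in N_46, with no overlap (exact permutation p = 0.10). Rbl1 was the 1 gene of the 10 with probe sets of both signs, and no single direction is given for it here.

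**Figure D2:**
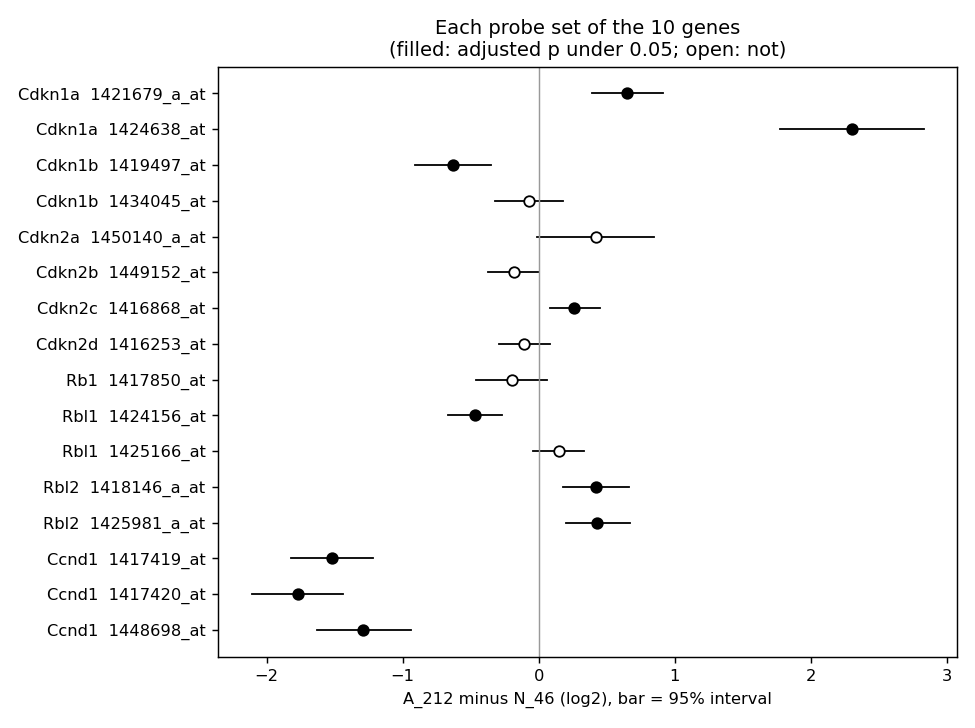
Difference A_212 minus N_46 on the log2 scale (horizontal axis) for each of the 16 probe sets, with the 95% interval of the limma fit, filled where the adjusted p is under 0.05. The 3 probe sets of Ccnd1 lie between -1.77 and -1.29 and those of Rbl2 at 0.42 and 0.43, and the probe sets of Cdkn1a lie at 0.65 and 2.30, of Cdkn1b at -0.63 and -0.07 and of Rbl1 at -0.47 and 0.15.

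Ccnd1 encodes cyclin D1, whose synthesis growth factor signalling drives. It read -0.66, -0.79 and -0.51 in A_212, against 0.51, 1.06 and 1.04 in N_46. All A_212 arrays lay below all N_46 arrays, and N_46 replicate 1 was the lowest of its line. The difference was -1.53 ± 0.14, or 2.88-fold lower in A_212 (95% interval -1.83 to -1.22, limma adjusted p = 1.0e-05), and its 3 probe sets gave -1.52, -1.77 and -1.29. They shared the direction and differed in size. Within each array 1448698_at minus 1417420_at was 0.34, 0.41 and 0.24 in A_212, against -0.24, -0.08 and -0.17 in N_46. Those values did not overlap (exact permutation p = 0.10). This pair was picked from the 3 probe sets as the one furthest apart in line difference, so that p is not an independent test. Both other D-type cyclins had the opposite sign. Ccnd2 read 0.61, 0.51 and 0.63 in A_212, against -0.66, -0.49 and -0.64 in N_46, a difference of 1.18 ± 0.08 (limma adjusted p = 7.9e-07). Ccnd3 read 0.24, 0.29 and 0.22 in A_212, against -0.39, -0.31 and -0.22 in N_46 (0.56 ± 0.07, limma adjusted p = 0.00015). The lines were fully apart for all 3 cyclins. Centred values do not tell which of the 3 was the most abundant in either line.

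Both kinases that these cyclins activate were lower in A_212. Cdk6 read -0.94, -0.93 and -0.40 in A_212, against 0.40, 1.01 and 1.08 in N_46, a difference of -1.59 ± 0.19, or 3.01-fold (limma adjusted p = 6.8e-05). Cdk4 differed by -0.55 ± 0.09 (limma adjusted p = 0.00049). Over the 11 cyclins, CDKs and activators of G1 that were measured, 3 were higher in A_212, 6 were lower and 2 did not pass, with a median of -0.35, where 18.3% of all genes were called higher and 20.9% lower. The cyclin E genes Ccne1 (-0.78) and Ccne2 (-0.35) and their kinase Cdk2 (-0.40) were among the 6. Ccnh, a cyclin of the CDK-activating kinase (0.41), was the third of the higher genes, and its call ended with the median of its probe sets (0.20, limma adjusted p = 0.084).

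**Figure D3:**
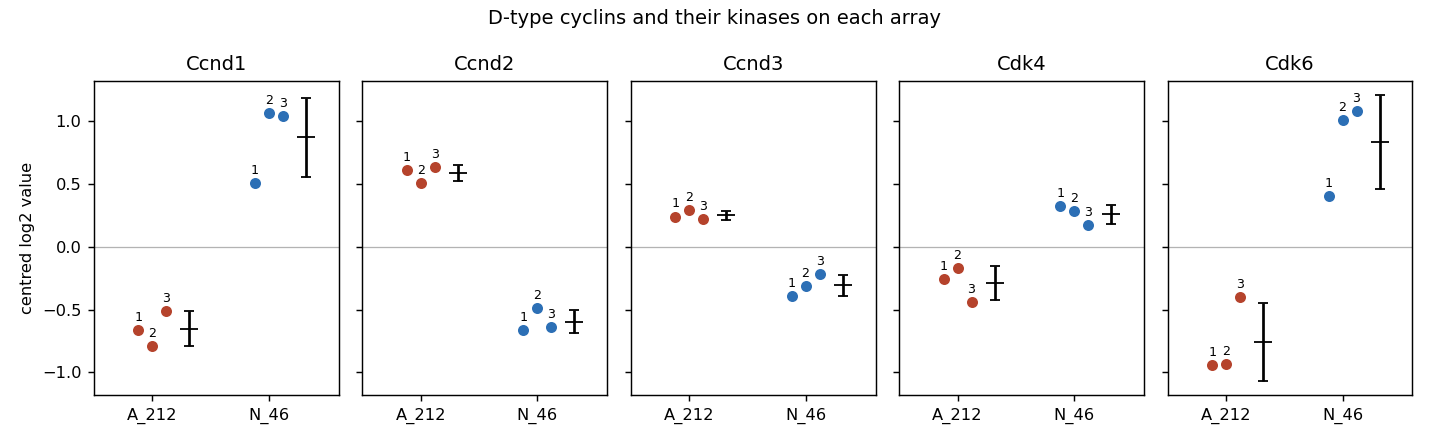
Centred log2 value (vertical axis) on each array of the D-type cyclin genes and of the kinase genes Cdk4 and Cdk6, A_212 in red on the left and N_46 in blue on the right, with replicate numbers and the mean ± SD of 3 arrays. Ccnd1, Cdk4 and Cdk6 lie below 0 on all A_212 arrays, and Ccnd2 and Ccnd3 lie above 0 on them.

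By the root-mean-square difference over the 6 arrays, the genes whose centred profiles lay nearest to that of Ccnd1 were Sox12 (0.144), Fam107b (0.147) and Cdk6 (0.147). Nearest to Cdkn1a were Fgl2 (0.119), Prrx2 (0.126) and Lbp (0.156). They too were lowest on replicate 1 among the A_212 arrays, which their choice by likeness to the Cdkn1a profile largely brings about. Cep70 (0.053), Snx14 (0.056) and Hdac5 (0.060) lay nearest to Rbl2. With 2 lines and 3 plates each, such likeness describes these 6 arrays only.

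Genes listed as further inhibitors and the E2F factors were lower in A_212 where they passed, as 20.9% of all genes were, with 18.3% higher. All 3 measured genes of that inhibitor list were called lower. They were Cdkn1c, which encodes p57, the third CIP/KIP protein (-0.64), Cdk2ap1 (-0.26) and Cables1 (-0.49), which encodes an adaptor and not a direct inhibitor. With Cdkn1a and Cdkn1b, the CIP/KIP family thus had 1 gene higher and 2 lower in A_212. Of 7 E2F and DP genes measured, 4 were lower and 0 higher, with a median of -0.32. They were E2f4, the partner of p130 (-0.55), the repressor E2f8 (-0.45), the activator E2f3 (-0.34) and Tfdp1, which encodes the DP subunit (-0.32). E2f1 differed by 0.02 (limma adjusted p = 0.88). A list of 6 measured genes is linked to MuvB and to DREAM, the complex in which p107 or p130 holds cell cycle genes silent. Of these only Dyrk1a, the kinase that promotes assembly of DREAM, was called (-0.31). Of 8 corepressors of the retinoblastoma proteins, the deacetylase gene Hdac3 was higher (0.44), Hdac2 (-0.58) and the demethylase gene Kdm5a (-0.33) were lower, and 5 did not pass. Kdm5a lost its call without A_212 replicate 3 (adjusted p = 0.097), without N_46 replicate 1 (0.084) or with array weights (0.058). When every array was set to the same median, 5 of the 8 were called. With plain probe sets alone, 5 of the 8 were measured and 1 was called.

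Genes that act downstream of this control differed in both directions. Of 27 replication genes known as E2F targets, 3 were higher in A_212, 3 were lower and 21 did not pass, a called share of 22.2%, with 39.2% of all genes called, and a median of 0.01. Cdc6, which loads the replicative helicase (0.31), the DNA ligase gene Lig1 (0.29) and the sliding clamp gene Pcna (0.22) were higher. The ribonucleotide reductase gene Rrm2 (-0.46), the helicase subunit gene Mcm2 (-0.35) and the flap endonuclease gene Fen1 (-0.33) were lower. Without A_212 replicate 2, 3 of the 27 were called, since Cdc6 (adjusted p = 0.061), Lig1 (0.051) and Pcna (0.076) missed the threshold. Cdc6 also missed it without A_212 replicate 1 or N_46 replicate 1, and Pcna without A_212 replicate 1 or N_46 replicate 2 or 3. Of 14 mitotic genes, Kif20a, a kinesin gene of cytokinesis (0.59), was higher and 4 were lower, a called share of 35.7%, close to the 39.2% of all genes. Those included the kinase genes Cdk1 and Plk1 (both -0.55) and the centromeric histone gene Cenpa (-0.53), and 9 did not pass. Without A_212 replicate 1, 8 of the 14 were called, and with plain probe sets alone, which left 10 of the 14 measured, 2 were called.

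The p53 target genes, the group to which Cdkn1a belongs, went both ways with large differences. Of 17 measured besides Cdkn1a, 5 were higher in A_212, 5 were lower and 7 did not pass, with a median of 0.01. The called share was 58.8%, beside 39.2% of all genes (18.3% higher and 20.9% lower). Trp53inp1, a mediator of p53-dependent arrest and death (1.47), Ccng1, which encodes cyclin G1 (1.37), and the antiproliferative gene Btg2 (1.25) were higher. Trp53inp1 read 0.40, 1.0 and 0.97 in A_212, against -0.40, -0.79 and -0.85 in N_46, and replicate 1 was the lowest A_212 array for it as for Cdkn1a. The epithelial apoptosis gene Perp (-5.41), the BH3-only gene Pmaip1 (-2.40) and the stress gene Gadd45a (-1.19) were lower in A_212. Gadd45a read -0.26, -0.38 and -0.66 in A_212, against 1.54, 0.26 and 0.48 in N_46, with N_46 replicate 1 far above the rest. Its difference ran from -1.44 to -0.81 with 1 array left out, and the call held. Among 9 other partners of the SV40 T-antigens, the phosphatase 2A subunit gene Ppp2r1a was higher (0.39) and 8 did not pass, with 3 called without A_212 replicate 3 or with array weights and 2 with either array scaling.

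Regulators of the inhibitors and of cyclin D1 differed in both directions, and the counts in this and the next paragraph stand beside 18.3% of all genes called higher and 20.9% called lower. Of 19 regulators of the Cdkn2a locus, 3 were higher in A_212 and 7 lower. The largest differences were those of Ets2 (-1.92), an activator of p16, the oncogene Myc, which induces p19Arf (-1.72), and Id1, an antagonist of ETS factors there (-1.08). Id1 read -0.75, -0.01 and -0.20 in A_212, against 0.01, 1.07 and 1.18 in N_46, so the nearest arrays of the lines almost met. Its difference ran from -1.45 to -0.86 with 1 array left out, and the call held. The rest of the 7 lower genes were Ets1 (-0.71), Kdm2b (-0.67), the T-box gene Tbx2 (-0.40) and the Polycomb gene Eed (-0.34). The Polycomb gene Bmi1, a repressor of the locus (0.27), Twist1 (0.27) and the T-box repressor gene Tbx3 (0.26) were higher. Polycomb and T-box genes of this list thus went both ways. Of 11 transcriptional regulators of p21 and p27, Klf4, an activator of Cdkn1a (0.94), Foxo3, an activator of Cdkn1b (0.30), and Smad4 (0.28) were higher, and Foxo1 (-0.58) and Klf6 (-0.56) were lower. Of 14 genes that serve the degradation of p21, p27 and cyclin D1, the F-box gene Fbxo31 (0.27) and the adaptor gene Skp1 (0.20) were higher. Cul4a (-0.37), Cks1b, the cofactor for p27 recognition (-0.32), and Fbxo4 (-0.29) were among 4 that were lower. The small differences of Tbx3, Twist1, Foxo3, Smad4, Fbxo31 and Skp1 each lost the call in several of the 6 fits that left out 1 array, with limma adjusted p-values up to 0.14. Skp1 also lost it with the replicate block (adjusted p = 0.065) and with plain probe sets alone (0.050), and Smad4 with plain probe sets alone (0.054). Counts of called genes fell to 3 of the 11 without A_212 replicate 2 or N_46 replicate 2 or 3, and to 3 of the 14 without N_46 replicate 2 or 3.

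Of 11 measured transcription factors known to act on Ccnd1, 4 were higher and 3 lower in A_212. Stat3 (0.59) and Yap1 (0.34) were higher, and the AP-1 genes Fosl1 (-1.54) and Jun (-0.62) and the NF-kB gene Rela (-0.21) were lower. The immediate early gene Fos read 0.14, 3.37 and 2.98 in A_212, against -0.14, -0.42 and -0.28 in N_46. Replicate 1 of A_212 lay close to N_46, and the difference of 2.44 ± 0.64 passed (limma adjusted p = 0.012) but not with robust eBayes (0.12), without A_212 replicate 2 (0.052) or without A_212 replicate 3 (0.067). Without A_212 replicate 3, 4 of the 11 were called. Rela lost its call under both scalings (0.077 and 0.057) and without each array other than A_212 replicate 1 (up to 0.11). The same array was the lowest of its line for Cdkn1a, and the part of whatever sets that plate apart in the difference of Cdkn1a was not tested. Without it, Cdkn1a differed by 1.72.

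**Figure D4:**
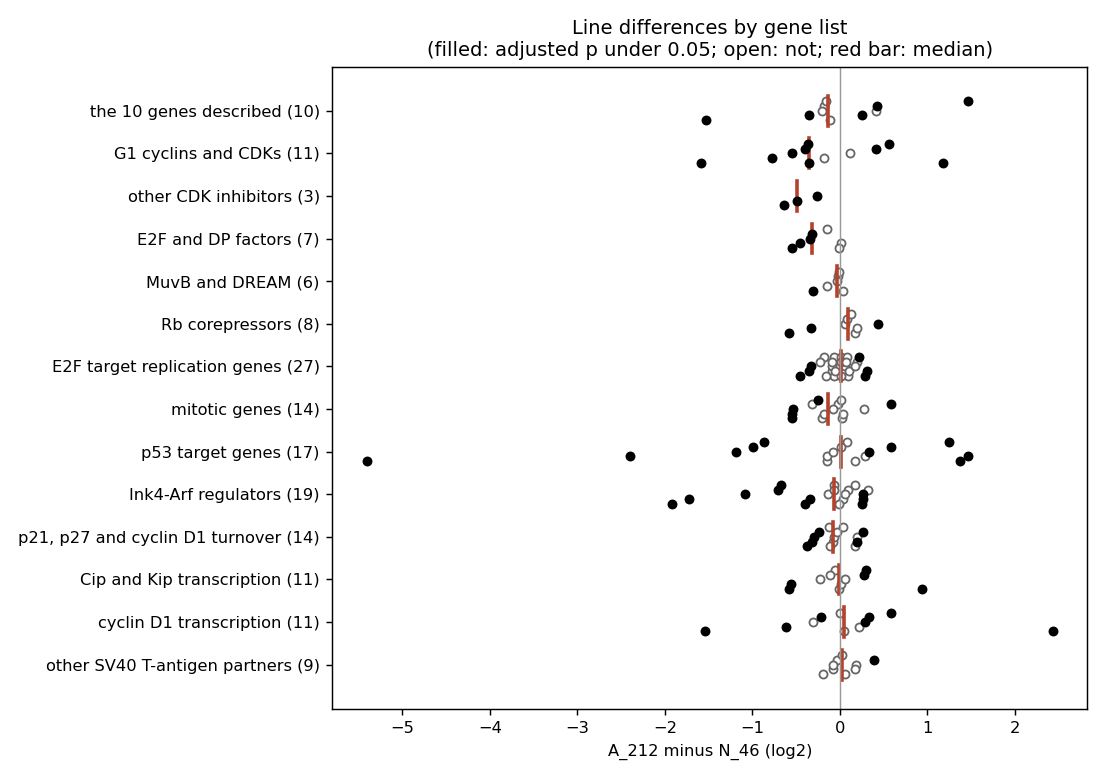
Difference A_212 minus N_46 on the log2 scale (horizontal axis) of every measured gene in the 10 genes described and in the pathway lists (rows, with the number of genes), filled where the limma adjusted p is under 0.05 and open otherwise, with the median of each list as a red bar. These rows leave out the cell type markers. Their medians run from -0.49 for the genes listed as further inhibitors to 0.10 for the retinoblastoma corepressors, and that of the 10 genes described is -0.13.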

How the data were processed

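The authors deposited log2 values of an Affymetrix array for 6 plates, 3 per line. The submitters' processing notes name RMA without a version, and no source used here describes the centring or states the log base, taken as 2. Of 22690 probe sets, 20380 had 1 gene in the platform annotation, 691 several, 1555 none and 64 were controls, and 20351 of the 20380 were found in a RefSeq table of GRCm38.p6. A gene's value was the mean of the probe sets named for it alone. Lines were compared with limma (lmFit and eBayes without trend, two-sided, Benjamini-Hochberg over 12393 genes or 22626 probe sets). A simulation drew 12393 independent genes, 200 of them changed. The test recovered 64.5%, 97.3% and 100% of genes changed by 0.5, 1 and 2, and 9 of its 185 calls were false. With 39.2% of genes called in the data, these rates need not carry over.

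The 10 genes and the lists were chosen with earlier results of these data known, so lists are described by counts and medians without a test. Named were the 10 genes, up to 3 called genes each way per list, 5 tested neighbours on each side of Cdkn2a and Cdkn2b, and 3 nearest profiles for each of the 3 largest differences. Ccne2, Cdk2, E2f1, Tfdp1, Ets1, Kdm2b, Tbx2 and Eed, outside that rule, were added after their values were seen. Alternatives were both array scalings, plain probe sets, medians, robust eBayes, array weights, the replicate block, a 2-fold bound and leaving out each array. Single probe sets were added after the data were seen. Same-numbered arrays deviated together with correlations of -0.027, -0.012 and 0.093, so the numbers were not taken as pairs. Software was limma 3.58.1 in R 4.3.3, and scipy 1.17.1, pandas 2.3.3, numpy 2.4.6 and matplotlib 3.10.9 in Python 3.11.15.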

Additional observations from a re-analysis of the deposited data

How the results depend on the processing

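Neither array scaling changed a call among the 10 genes, nor did robust eBayes, medians of probe sets or the replicate block, with which 5 of the 10 genes, 4834 genes and 8009 probe sets were called. Leaving out 1 array gave 3 to 6 called genes of the 10, 3903 to 5124 called genes in all and 6442 to 8099 called probe sets. Differences then ranged from -0.42 to -0.27 for Cdkn1b, 0.18 to 0.63 for Cdkn2a, -0.24 to -0.15 for Cdkn2b and 0.21 to 0.30 for Cdkn2c, the 4 of the 10 genes whose call changed with an array left out. The calls of Cdkn1a (1.35 to 1.72), Rbl2 (0.36 to 0.54) and Ccnd1 (-1.70 to -1.43) held without each of the 6 arrays. Rb1 (-0.30 to -0.07), Cdkn2d (-0.15 to -0.05) and Rbl1 (-0.20 to -0.09) stayed uncalled in those fits. Array weights brought Cdkn2b past the threshold (-0.21, adjusted p = 0.035). Plain probe sets alone raised Cdkn1a to 2.30 and left Cdkn2a and Rbl2 without a value. Tested by treat against a 2-fold bound, 406 genes were called and 0 of the 10, with unchanged differences for Ccnd1 (-1.53, adjusted p = 0.051), Cdkn1a (1.47, 0.25), Cdkn1b (-0.35), Cdkn2c (0.26) and Rbl2 (0.43, adjusted p = 1 for the last 3), a bound that asks more than a difference from 0. By single probe sets, Cdkn1b lost its call (-0.07), and Rbl1 gained one (-0.47) or turned sign (0.15). Ifna4 (-0.14 to 0.00) and Ifna1 (-0.14 to 0.01) turned sign with an array left out, A_212 replicate 1 and 2 in turn, neither gene being called. The causes of these changes were not tested.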
